A study of Mus musculus with 7 samples.

Results

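Apoe, Lpl and 8 genes of cholesterol efflux, cholesterol ester turnover and lipid storage were examined in microglia, the resident macrophages of the brain, sorted from inside and outside neuronal grafts. The 10 genes were chosen by name, with their values in this same comparison already known, and they were 10 of the 55341 gene names in the table of counts. Embryonic cortical neurons of WT C57BL/6 mice, which carry no transgene, had been injected into the cortex of 5xFAD mice, and all 7 libraries came from these hosts. In 5xFAD mice human APP and human PS1 with familial Alzheimer's disease mutations are expressed under the neuron-specific Thy1 promoter. The transgenes are thus expressed in host neurons and not in grafted cells. The paper nevertheless reports amyloid plaques inside such grafts from 4 weeks after injection, the time of these libraries. The hosts were 14 weeks old by the labels and were taken 4 weeks after injection. Inside graft refers to 3 libraries of CD11b+CD45low cells from the graft itself, and outside graft to 4 libraries of the same gate from cortex near it. The labels do not say which libraries came from separate mice or from pooled grafts, so the intervals and P values below measure the spread between these libraries, which may be partly technical.

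Apoe is a secreted protein that carries cholesterol and phospholipid between cells, in the healthy brain mainly from astrocytes, and microglia are known to make more of it near amyloid plaques. Macrophages that take up lipid either store cholesterol as esters in droplets or release it through the transporters Abca1 and Abcg1 to acceptor particles that contain Apoe. Liver X receptors (LXRs), nuclear receptors that are bound by oxidized forms of cholesterol, are known to switch on many genes of the release arm, Abca1, Abcg1, Apoe and Lpl among them.

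Apoe, Nceh1 and Fabp5 were several times more abundant inside than outside the graft, Plin2 and Soat1 were moderately more abundant in all 3 inside libraries, and Lpl was higher on average but with overlapping groups. The transporters Abca1 and Abcg1 and the liver X receptors Nr1h3 and Nr1h2 overlapped between the groups as well. Thus 5 of the 10 genes had all inside libraries above all outside libraries, against 5.65% of the 15257 genes tested, and 0 of the 10 had the opposite order, against 5.02%. The log2 fold change was above 0 for 8 of the 10, against 48.3% of all genes, and its 95% interval lay wholly above 0 for 6, against 7.47%. With limma's voomWithQualityWeights, 3 of the 10 (Apoe, Nceh1 and Fabp5) lay past an adjusted P of 0.05 with higher values inside, against 0.433% of all genes, and 0 with lower values, against 0.059%. The quasi-likelihood test of edgeR placed the same 3 past 0.05, against 0.0983%. At the threshold of 0.01 the limma fit called 0 of the 10, against 0.0197% of all genes, while 6 of the 10 had an unadjusted P below 0.05 in it, against 12.2%. Because the genes were picked with these values in view, the counts describe them and support nothing further. The median log2 fold change of the 10 was 0.89, and that of all genes tested was -0.01.

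**Figure D1:**
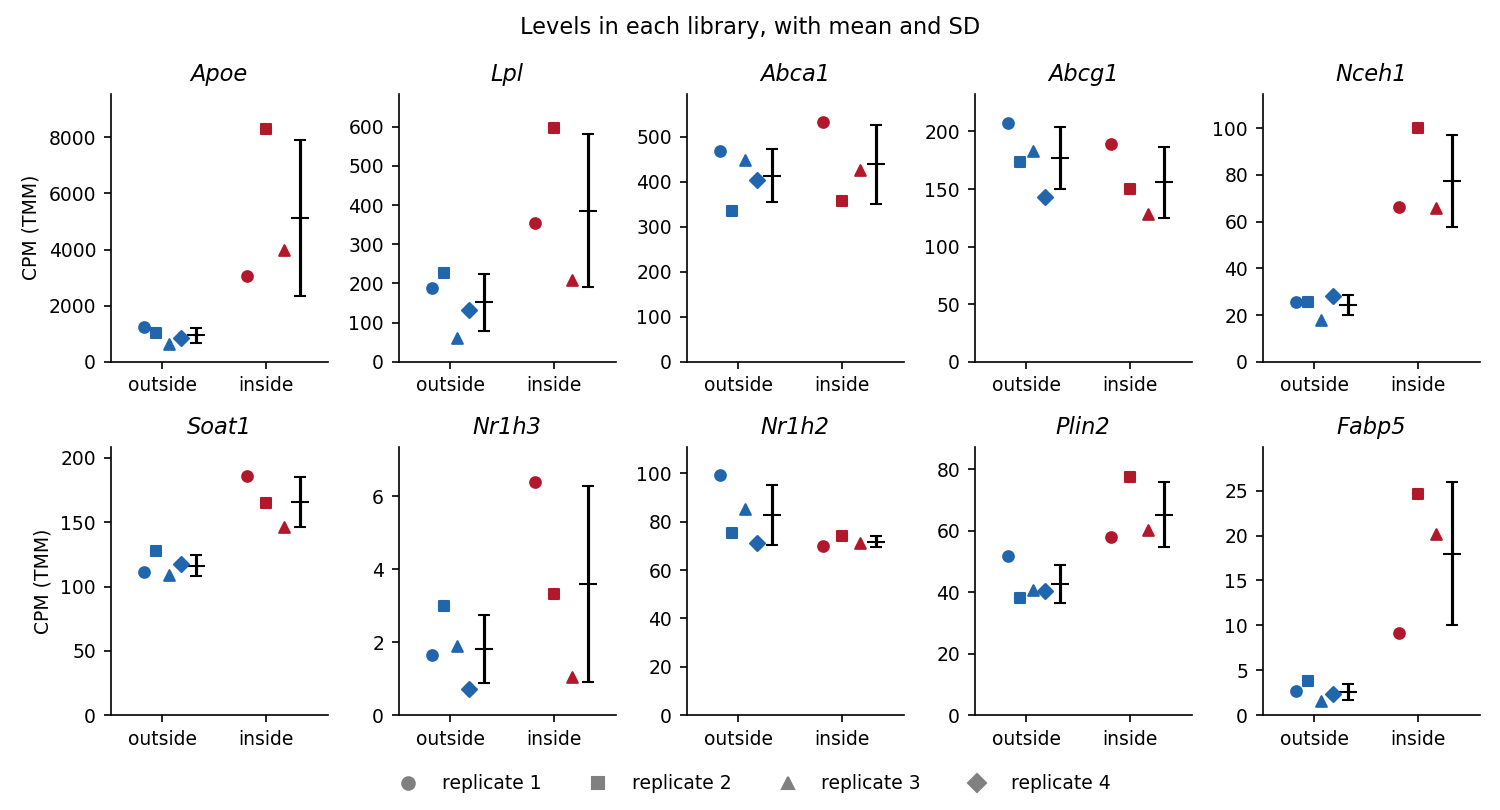
Level of each of the 10 genes in each library, in CPM after TMM scaling on linear axes that start at 0, with outside graft in blue and inside graft in red, marker shapes for replicate numbers, and mean and SD in black beside the points. The red points lie above all blue points for Apoe, Nceh1, Soat1, Plin2 and Fabp5, and the colours overlap for Lpl, Abca1, Abcg1, Nr1h3 and Nr1h2.

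Between 18644807 and 25882122 reads were counted per library. Levels are given as CPM, the count of a gene relative to the total of its library, corrected by TMM, a factor that aligns the bulk of genes between libraries. In the limma fit the library weights ran from 0.448 for outside graft 1 to 1.76 for outside graft 4. All 10 genes passed the filter on low counts. The microglial genes were abundant in all libraries, with a summed level of 12 markers between 49500 and 57500 CPM inside and between 56900 and 63600 CPM outside. Their abundance does not show that the sorted cells were free of other cell types. Some markers of other cells moved with the groups: the summed level of 10 monocyte markers was 94.9 to 1510 CPM inside and 17.4 to 34.0 CPM outside, and that of 8 genes of dividing cells was 91.7 to 132 CPM inside and 10.9 to 39.1 CPM outside. In bulk RNA from sorted cells, a different number of cells of a type and a different amount of RNA per cell cannot be told apart.

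Apoe (chr7:19696109-19699188, minus strand, GRCm38.p6), the lipid carrier, was measured at 3077, 8306 and 3990 CPM in inside graft 1, 2 and 3. Outside it stood at 1248, 1041, 626.6 and 867.5 CPM in replicates 1 to 4. The lowest inside library was thus above the highest outside library, and inside graft 2 was the highest by far. The log2 fold change was 2.47 (SE 0.30, 95% interval 1.82 to 3.12), which is a 5.54-fold difference with an interval of 3.52 to 8.72. Apoe took 0.303% to 0.788% of all counted reads inside and 0.0637% to 0.125% outside. By RPKM, the CPM divided by the kilobases of exon, it ranked between 10 and 23 among the 15257 genes tested in the inside libraries and between 51 and 85 in the outside libraries. The spread was wider inside, where the highest library held 2.7 times the lowest, than outside, where the factor was 1.99. The log2 fold change remained between 2.07 and 2.80 when any 1 library was left out, with the lowest value without inside graft 2. Its adjusted P, 0.0136 with all libraries, rose to 0.0945 without outside graft 3, to 0.0865 without outside graft 4 and to 0.0508 with no filter on low counts, within a range of 1.77e-05 to 0.0945 over the alternatives.

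Lpl (chr8:68880491-68907448, plus strand) encodes lipoprotein lipase, which splits triglyceride in lipoproteins and releases fatty acids for uptake. Its levels were 354.6, 595.5 and 208.0 CPM in inside graft 1, 2 and 3. Outside they were 187.5, 225.5, 60.5 and 133.0 CPM in replicates 1 to 4. The groups overlapped, since inside graft 3 lay below outside graft 2, and the highest library held 2.86 times the lowest inside and 3.73 times the lowest outside. The log2 fold change was 1.66 (95% interval 0.75 to 2.57). Without outside graft 3, the library with the lowest Lpl, it was 1.04. The adjusted P of 0.107 was 0.0356 with at least 10 counts in every library and 0.000654 with the replicate number as a block and without outside graft 4, within a range of 0.000654 to 0.417 over the alternatives. By RPKM Apoe exceeded Lpl 42.5, 68.4 and 94.0 times in the inside libraries and 22.6 to 50.8 times in the outside libraries, and these ranges of the ratio overlapped.

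Both efflux transporters were abundant and differed little between the groups. Abca1 (chr4:53030787-53159895, minus strand), which loads cholesterol and phospholipid onto lipid-poor apolipoproteins, was at 532.3, 357.4 and 427.4 CPM in the inside libraries. Outside it was at 469.1, 334.9, 448.2 and 403.9 CPM. The highest value was in inside graft 1 and the lowest in outside graft 2, and the log2 fold change was 0.10 with an interval of -0.21 to 0.42. Abcg1 (chr17:31057675-31117988, plus strand), which passes cholesterol to particles that already hold lipid, was at 189.4, 149.7 and 128.3 CPM inside. In the outside libraries it was at 207.6, 173.5, 183.4 and 142.8 CPM. Here the highest library was outside graft 1, and the log2 fold change was -0.09 with an interval of -0.43 to 0.25. The intervals place any mean difference of either transporter at less than 2-fold in each direction, a size that 3 of the 10 genes (Apoe, Nceh1 and Fabp5) exceeded with their whole intervals, as did 1.3% of all genes. The RPKM of Abca1 was 1.68 to 2.35 times that of Abcg1 inside and 1.36 to 1.99 times outside. The sign of both small values depended on single libraries: the log2 fold change of Abca1 was -0.07 without inside graft 1 and that of Abcg1 was 0.01 without inside graft 3.

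Turnover of cholesterol esters is governed by opposing enzymes. The transcripts of both were higher in each inside library than in any outside library, to unequal extents, but only Nceh1 was called. Nceh1 (chr3:27182965-27284608, plus strand), neutral cholesterol ester hydrolase, frees cholesterol from stored esters. It was at 66.3, 100.3 and 66.0 CPM inside. It was at 25.4, 25.6, 18.02 and 28.3 CPM outside. All inside libraries exceeded all outside libraries more than 2-fold, and the log2 fold change was 1.69 (95% interval 1.22 to 2.16), a 3.23-fold difference. The adjusted P of 0.0144 became 0.0945 without outside graft 3 and 0.0756 without outside graft 4, within a range of 9.37e-11 to 0.0945 over the alternatives, while the log2 fold change stayed between 1.49 and 1.84.

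Soat1 (chr1:156424525-156474331, minus strand), which forms cholesterol esters at the endoplasmic reticulum, was at 185.8, 164.9 and 146.5 CPM inside. It was at 111.0, 127.5, 108.8 and 117.5 CPM outside. The groups did not overlap and were tight, with a coefficient of variation of 11.9% inside and 7.22% outside. The log2 fold change was 0.53 (95% interval 0.28 to 0.78), or 1.45-fold, with an adjusted P of 0.0663 in the limma fit and 0.128 in edgeR. The balance of both enzymes can be read per length within each library: the RPKM of Nceh1 divided by that of Soat1 was 0.665, 1.13 and 0.841 inside. The same ratio was 0.427, 0.375, 0.309 and 0.448 outside, so it was higher in each inside library than in any outside library.

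The liver X receptors showed no such separation. Nr1h2 (chr7:44549616-44553951, minus strand), the widely expressed LXRβ, was at 69.8, 74.2 and 71.2 CPM inside. It was at 99.4, 75.4, 85.3 and 71.1 CPM outside. The inside libraries were nearly equal, with a coefficient of variation of 3.14%, and lay at the low end of the outside range, with a log2 fold change of -0.14 (95% interval -0.43 to 0.15). Nr1h3 (chr2:91184061-91202834, minus strand), LXRα, was scarce, with 163, 75 and 25 counts in the inside libraries and 31, 67, 47 and 18 counts in the outside libraries. These correspond to 6.40, 3.33 and 1.05 CPM inside and 1.65, 2.98, 1.89 and 0.729 CPM outside. The groups overlapped fully at the low end and the highest inside library held 6.08 times the lowest. The log2 fold change of 1.13 had an interval of -0.38 to 2.63, which includes both 0 and a 2-fold difference. Leaving out inside graft 1 took the value to 0.37 and leaving out outside graft 4 took it to 0.49. Nr1h3 shares 34 exon bases with Gm13783 on the same strand, which received at most 16 counts in any library. By RPKM Nr1h2 exceeded Nr1h3 8.17 to 50.7 times inside and 19.0 to 73.1 times outside.

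Of the lipid storage and fatty acid genes, Plin2 (chr4:86648386-86670060, minus strand), a coat protein of lipid droplets, was at 57.9, 77.3 and 60.3 CPM inside. It was at 51.8, 38.1, 40.7 and 40.3 CPM outside. The gap between the groups was small, from 51.8 CPM in outside graft 1 to 57.9 CPM in inside graft 1. The log2 fold change was 0.65 (95% interval 0.33 to 0.98), or 1.57-fold, with an adjusted P of 0.0779 in the limma fit and 0.184 in edgeR. Fabp5 (chr3:10012548-10016607, plus strand), a carrier of fatty acids in the cytoplasm, was at 9.15, 24.6 and 20.2 CPM inside. It was at 2.72, 3.78, 1.61 and 2.31 CPM outside. The inside libraries lay well above the outside ones, and the log2 fold change of 2.79 (95% interval 1.73 to 3.85) was the highest of the 10 genes, although the level was the second lowest per length. Near-identical copies of Fabp5 exist in the mouse genome and multiply aligned reads were left out of the counts, so its level is uncertain. The adjusted P of Fabp5, 0.0398, exceeded 0.05 when inside graft 3 or any outside library was left out, at 0.0549 to 0.266, and without the quality weights, at 0.0782. Its log2 fold change ran from 2.42 to 3.30 over all alternatives.

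**Figure D2:**
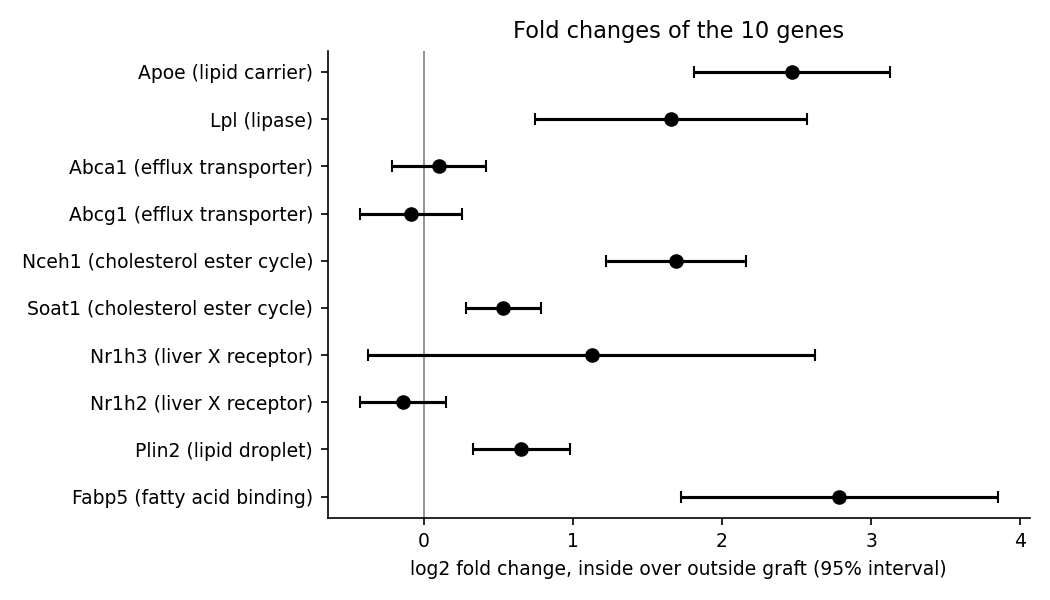
Log2 ratio of each gene between inside and outside graft on the x axis (positive, higher inside), with the 95% interval of the limma fit as a bar and the role of each gene beside its name. The intervals of Apoe, Nceh1 and Fabp5 lie wholly above 1, those of Lpl, Soat1 and Plin2 lie wholly above 0, and those of Abca1, Abcg1, Nr1h3 and Nr1h2 include 0.

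For 7 of the 10 genes RefSeq held the bases before the transcription start in the build of the counts (GRCm38.p6): Abca1, Apoe, Nceh1, Nr1h2, Nr1h3, Plin2 and Soat1. Lpl, Abcg1 and Fabp5 were not matched. Plin2 and Soat1, higher inside the graft without overlap but not called, are not printed. Apoe and Nceh1, higher without overlap and called in both tests, are printed, as is Abca1, a known LXR target that overlapped. Each is the 250 bases upstream of the start, 5′ to 3′ on the strand of the gene, at chr7:19699189-19699438 (minus strand) for Apoe, at chr3:27182754-27183003 (plus strand) for Nceh1 and at chr4:53159896-53160145 (minus strand) for Abca1. For Apoe the most upstream of 3 listed starts was used, and the window of Nceh1 reaches into the first bases of its GENCODE gene, whose start lies further upstream. Capitals mark the matches described after the sequences.
Apoe: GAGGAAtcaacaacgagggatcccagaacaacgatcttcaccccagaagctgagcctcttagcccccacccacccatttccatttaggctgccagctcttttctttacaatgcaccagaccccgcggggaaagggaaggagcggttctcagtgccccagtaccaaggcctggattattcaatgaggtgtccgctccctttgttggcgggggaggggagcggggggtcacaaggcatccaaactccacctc
Nceh1: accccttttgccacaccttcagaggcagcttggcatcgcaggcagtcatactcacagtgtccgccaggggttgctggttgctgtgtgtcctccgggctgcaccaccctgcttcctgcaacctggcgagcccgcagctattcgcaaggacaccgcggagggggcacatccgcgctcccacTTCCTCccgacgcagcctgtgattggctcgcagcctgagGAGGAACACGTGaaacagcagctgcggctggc
Abca1: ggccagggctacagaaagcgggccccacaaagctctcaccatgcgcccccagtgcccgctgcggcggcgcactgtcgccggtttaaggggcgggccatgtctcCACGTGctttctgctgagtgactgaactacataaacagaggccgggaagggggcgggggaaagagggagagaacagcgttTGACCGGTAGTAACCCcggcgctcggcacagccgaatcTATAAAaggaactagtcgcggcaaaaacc

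Motifs were searched on both strands in windows of 300 bases, from 250 before to 50 after the start, and positions are counted from 1 at the start with negative numbers before it. The LXR element of the DR4 type, a direct repeat of AGGTCA with 4 bases of any kind between the copies, matched 0 of the 7 windows with at most 2 mismatches in its 12 fixed letters, against 3.0% of 27025 windows of all genes. With at most 3 mismatches, a limit chosen after that search, it matched Abca1 alone, against 21.8% of windows. This match, which reads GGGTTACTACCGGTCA on the opposite strand, lies at -67 to -52, ahead of the TATA box letters TATAAA at -29 to -24, which stand in 14.2% of windows. The core of the macrophage factor PU.1, GAGGAA, matched 2 of the 7 windows, those of Apoe and Nceh1, against 28.3% of windows of all genes. In Apoe it lies at -250 to -245 and, on the opposite strand, at 2 to 7, which is past the printed bases, and in Nceh1 at -32 to -27 and, on the opposite strand, at -71 to -66. The E-box CACGTG, bound by factors of lysosomal genes among others, matched Nceh1 at -26 to -21, directly next to the PU.1 letters, as well as Abca1 at -147 to -142 and Plin2 at -4 to 2, against 7.24% of windows. The single half-site AGGTCA matched Plin2, against 16.0%. The windows of Soat1, Nr1h2 and Nr1h3 held none of these letters, and a match here describes the letters and not a bound site. The upstream bases of Nr1h3, at chr2:91195117-91195366, lie within its GENCODE gene, whose start is further upstream at 91202834.

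Levels of different genes can be compared only per length. In the outside libraries the mean RPKM was 442 ± 123 (SD, n = 4) for Apoe and 40.0 ± 5.73 for Abca1, and the ranges of both genes lay clear of each other and of the rest. Nr1h2 at 24.7 ± 3.74 and Abcg1 at 24.2 ± 3.67 were not separated, and Lpl at 14.5 ± 6.84, Plin2 at 12.2 ± 1.76 and Soat1 at 11.9 ± 0.857 overlapped as well. Nceh1 followed at 4.63 ± 0.838, below all values of these 3 genes, and Fabp5 at 0.730 ± 0.255 and Nr1h3 at 0.721 ± 0.368 overlapped at the bottom. Inside the graft Apoe remained first at 2397 ± 1306 RPKM (SD, n = 3), ahead of Abca1 at 42.4 ± 8.495 and Lpl at 36.8 ± 18.7, whose ranges overlapped. Nr1h2 at 21.4 ± 0.672, Abcg1 at 21.4 ± 4.25, Plin2 at 18.6 ± 3.005, Soat1 at 16.9 ± 2.01 and Nceh1 at 14.8 ± 3.75 formed an overlapping run, in which Nceh1 reached the range of Soat1, which it had not done outside. Fabp5 at 5.04 ± 2.24 and Nr1h3 at 1.43 ± 1.07 remained the lowest.

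The genes did not peak in the same inside library. Inside graft 2 held the highest inside value of 6 genes (Apoe, Lpl, Nceh1, Nr1h2, Plin2 and Fabp5), inside graft 1 that of the other 4 (Abca1, Abcg1, Soat1 and Nr1h3), and inside graft 3 that of 0. Outside graft 3 held the lowest outside value of 5 genes (Apoe, Lpl, Nceh1, Soat1 and Fabp5). To name the genes whose pattern over the 7 libraries was most like that of Apoe and of Lpl, the log2 CPM of each of 8917 genes with a mean of at least 10 CPM was centred and the root mean square difference was taken. Closest to Apoe were Axl, a receptor tyrosine kinase, with a difference of 0.309, then Ch25h (0.395), Ifitm3 (0.408), Ifi27l2a (0.413) and Oas2 (0.437), and Nceh1 stood at rank 8 with 0.451. Closest to Lpl were Baiap2l2 (0.255), Ccl3 (0.269), Cox6a2 (0.277), Cd52 (0.297) and Dna2 (0.308), with Nceh1 at rank 32 and Apoe at rank 115. These ranks describe 7 libraries that share their group difference and carry no test.

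Some marker sums of other cells differed between the groups and among the inside libraries. The monocyte sum was 731, 94.9 and 1510 CPM in inside graft 1, 2 and 3, against 17.4 to 34.0 CPM outside. Among the inside libraries it was lowest in inside graft 2, which had the highest Apoe and Lpl. The astrocyte sum, at 288, 300 and 251 CPM inside, was highest in that library but below the 327 to 352 CPM of the outside libraries. The most abundant and most different monocyte gene, Chil3, was at 587, 67.6 and 1190 CPM inside and at 0 to 15.0 CPM outside, and of the 9 monocyte genes tested 9 had a log2 fold change above 0, against 48.3% of all genes, 3 lay above all outside libraries in each inside library, against 5.65%, and 0 were called, against 0.492%. The sum over dividing cell genes was 119, 91.7 and 132 CPM in inside graft 1, 2 and 3, and 8 of its 8 genes were above all outside libraries, against the same 5.65%. Of these 8, 3 genes (Top2a, Birc5 and Ube2c) rose past an adjusted P of 0.05 in the limma fit (0.0316, 0.0482 and 0.0374), against 0.433% of all genes, and 0 in edgeR, where their adjusted P was 0.105 to 0.356, and all 3 lost the call without outside graft 3 (adjusted P 0.231 to 0.278) or without outside graft 4 (0.177 to 0.242). Birc5 and Ube2c lost it without inside graft 1 (0.0648 and 0.0511) or inside graft 3 (0.0761 and 0.0534) as well, and Birc5 without outside graft 1 (0.0606). Mki67, the gene of that list with the highest log2 fold change, had 7.39 with an adjusted P of 0.0552 in the limma fit. In edgeR it had 4.89 with an adjusted P of 0.109, from means of 29.7 CPM inside and 0.998 CPM outside. The microglial sum was 57500, 52900 and 49500 CPM inside, 12 of its 12 genes had a log2 fold change below 0 with 0 called, and P2ry13 had the largest difference at -0.58. The part of these cells in the levels of Apoe, Lpl and the other 8 genes was not tested.

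Of 10 astrocyte markers 6 were tested, 4 had a log2 fold change above 0 and 0 were called. Gja1 had 0 counts in all 7 libraries, which allows at most 3 counts in each, and Gfap did not exceed 1.55 CPM. The astrocyte sum of 251 to 300 CPM inside and 327 to 352 CPM outside came mostly from Slc1a3, at 268 CPM inside and 338 CPM outside, while Aldh1l1, with the largest log2 fold change of that list at 2.82, was at 6.55 CPM inside and 1.08 CPM outside. The part of astrocytes in the level of Apoe was not tested. The sum over markers of border-associated macrophages was 396 to 654 CPM inside and 533 to 633 CPM outside, with Stab1 the most abundant at 477 and 580 CPM and Pf4 the most different at 10.6 and 0.418 CPM, and 7 of its 8 tested genes had a log2 fold change above 0, with a median of 3.89. Neuronal markers summed to 4.20 to 6.07 CPM inside and 4.45 to 11.5 CPM outside, led by Snap25 with a log2 fold change of -0.76. Oligodendrocyte markers summed to 156 to 161 and 156 to 165 CPM, mainly Cnp at 86.2 and 87.9 CPM. The limma log2 fold change furthest from 0 in that list was that of Olig1, 2.21, but its means were 0.506 CPM inside and 0.507 CPM outside and edgeR gave 0.02. Endothelial markers summed to 30.7 to 40.4 and 37.5 to 61.2 CPM, with Pecam1 the most abundant at 20.7 and 37.1 CPM and Flt1 the most different at 2.17 on the log2 scale (1.14 in edgeR). None of the genes in these 5 lists passed an adjusted P of 0.05 in the limma fit or in edgeR. Of all genes tested, 0.492% passed it in the limma fit and 0.0983% in edgeR. An unadjusted P below 0.05 was found for 1858 (12.2%) and 1457 (9.55%) of all genes.

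**Figure D3:**
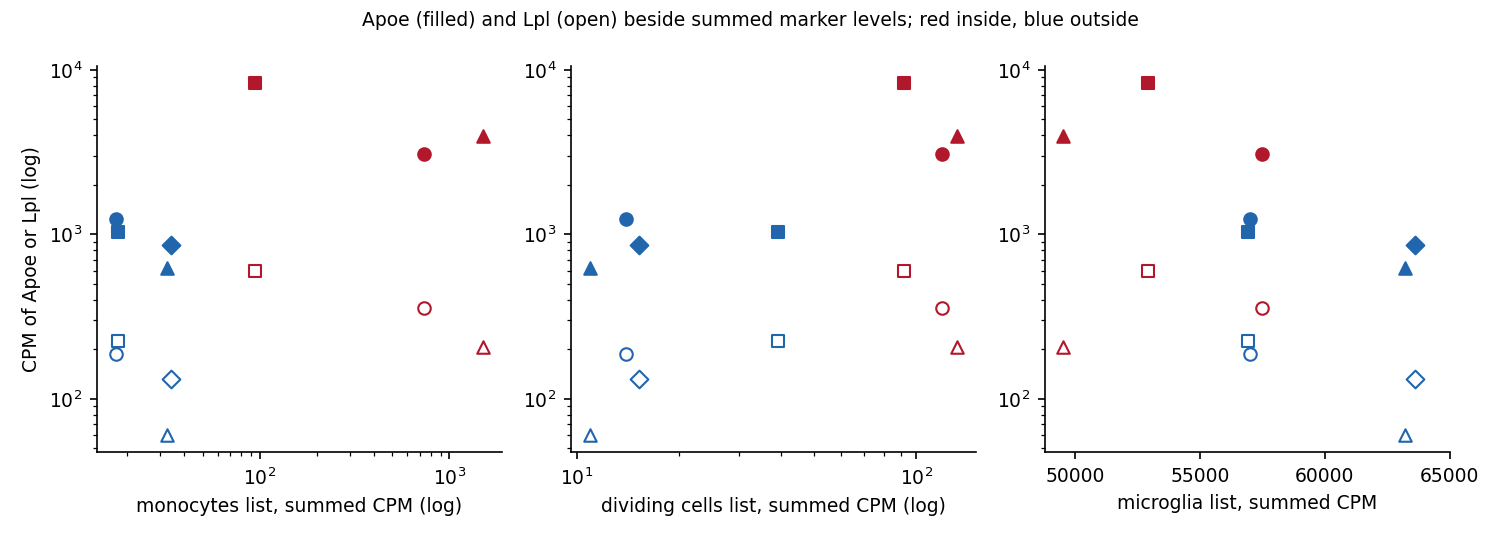
CPM of Apoe (filled) and Lpl (open) in each library on a log axis, against the summed CPM of the monocyte and the dividing cell markers (log axes) and of the microglial markers (linear axis), with inside graft in red, outside graft in blue and marker shapes for replicate numbers as in the plot of levels by library. The highest Apoe, 8306 CPM in inside graft 2, stands at a monocyte sum of 94.9 CPM. This sum is the lowest of the 3 inside libraries and above the 17.4 to 34.0 CPM of the outside libraries.

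Beyond the 10 genes, 11 lists of related genes held 107 genes, of which 77 passed the filter and were tested. A single one, Ch25h, changed at an adjusted P below 0.05 in the limma fit, against 0.492% of all genes tested. In edgeR 0 did, against 0.0983%, and the median log2 fold change of the 77 was 0.02. Of the 77, 13 had all inside libraries above all outside libraries, against 5.65% of all genes tested, and 5 had the opposite order, against 5.02%. Ch25h makes 25-hydroxycholesterol, an oxidized cholesterol that can bind LXRs. It was at 36.4, 63.5 and 32.8 CPM inside and at 14.9, 15.9, 4.06 and 7.98 CPM outside, with the groups apart and the highest library again inside graft 2. Its log2 fold change was 2.50 (95% interval 1.64 to 3.36) with an adjusted P of 0.0367. The adjusted P was 0.0953 in edgeR, 0.181 without outside graft 3 and 0.155 without outside graft 4, within a range of 0.000138 to 0.181 over the alternatives. The median over the 4 tested of 6 oxysterol enzymes was -0.69, but -0.38 in edgeR, -0.19 without inside graft 1 or with no filter and -0.07 with at least 10 counts in every library. The other 3 did not pass, and Sult2b1 had the next largest difference at -1.37 (-0.89 in edgeR) from under 1 CPM.

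Of 12 other LXR target genes 10 were tested and 0 were called, against 0.492% of all genes in the limma fit and 0.0983% in edgeR. Their median log2 fold change was 0.02. The 95% interval lay wholly above 0 for 3 genes, against 7.47% of all genes, and wholly below 0 for 3. In the limma fit 12.2% of all genes had an unadjusted P below 0.05 in either direction. Pltp, which transfers phospholipid between lipoproteins, had 2.33 (adjusted P = 0.122) and Smpdl3a, a phosphodiesterase, had 0.73 (adjusted P = 0.132). In the opposite direction, and named after their values were seen, Lpcat3, which remodels phospholipids, had -0.37 (adjusted P = 0.087), Rnf145 had -0.35 (adjusted P = 0.227) and Tgm2 had -0.56 (adjusted P = 0.308), the first pair with all inside libraries below all outside libraries. Partners and corepressors of nuclear receptors had a median of 0.11 over 7 of 9 genes with 0 called, with Rxrg at 2.73 and Ppard at 0.60. The neighbours of Apoe on its chromosome had a median of -0.02 over 4 of 5 genes with 0 called, Relb being highest at 0.71 and Nectin2 lowest at -0.16. Of 10 other apolipoproteins only Clu passed the filter, at -1.23 (-0.37 in edgeR) from 0.514 CPM outside, and Apoc1 and Apoc4 beside Apoe had at most 38 and 23 counts in any library.

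Lipoprotein receptors had the highest median, 1.47 over 7 of 10 genes, with 0 called. Olr1, a scavenger receptor, had 1.74 (adjusted P = 0.462). With a filter of at least 10 counts in every library, which leaves 4 of these genes, the median was 0.08. Genes that handle lipoprotein lipase had a median of -0.06 over 7 of 9 genes, with Angptl4 at -2.49 in limma but -0.22 in edgeR, from means of 0.414 CPM inside and 0.477 CPM outside, and Lipc at 0.45, and Gpihbp1, which anchors the enzyme on capillaries, had 0 counts throughout. Lysosomal cholesterol egress and sterol transfer had 0.11 over 9 genes, with Stard4 at 1.74 and Npc2 at 0.51. Other ABC lipid transporters had 0.02 over 7 of 8 genes, with Abca5 at -3.38 and Abca2 at 0.43. Lipid droplet proteins and neutral lipid enzymes had -0.01 over 12 of 18 genes, with Dgat2, which forms triglyceride, at 4.21 (adjusted P = 0.101) and G0s2, an inhibitor of lipolysis, at 2.39, both from under 1 CPM outside. Fatty acid binding, uptake and activation had 0.09 over 9 of 11 genes, with Acsl3 at 1.53 and Fabp3 at 1.42. In each of these 6 lists 0 genes were called by either test, against 0.492% of all genes in the limma fit and 0.0983% in edgeR.

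**Figure D4:**
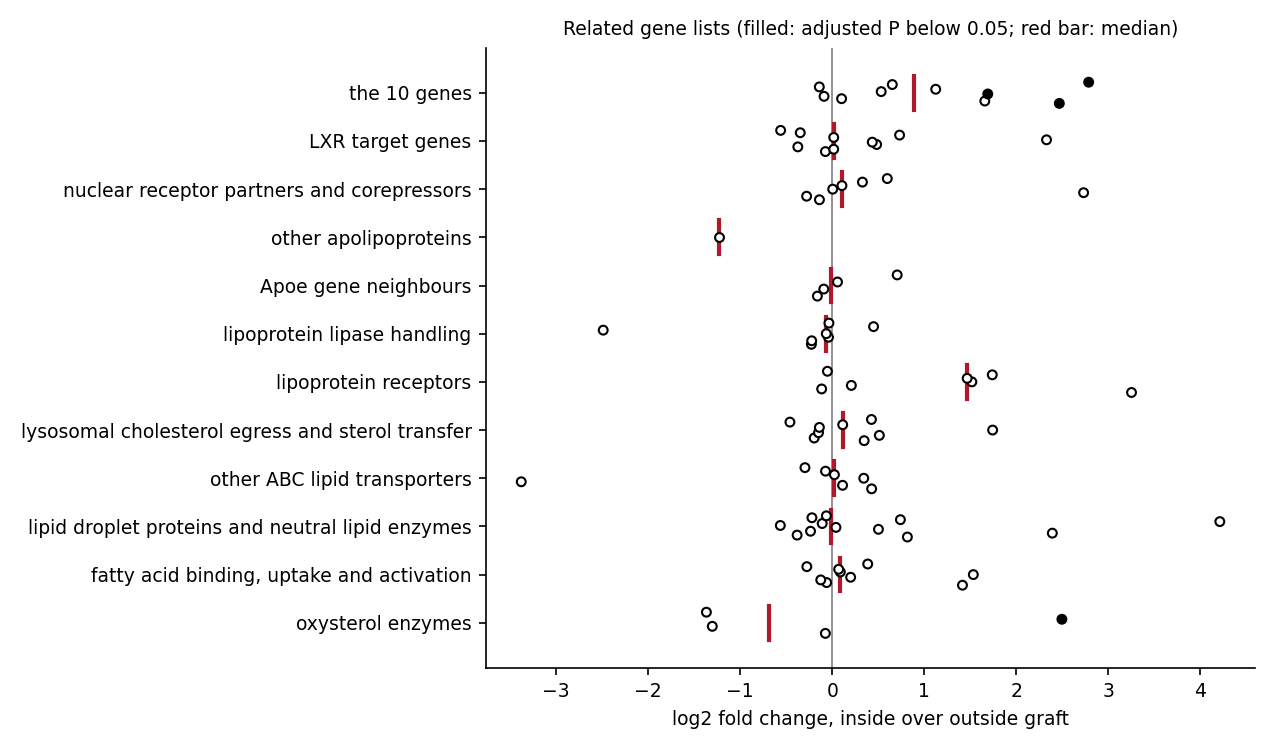
Log2 ratio between inside and outside graft (positive, higher inside) of the tested genes (circles) of the 10-gene set and of 11 lists of related genes, with circles filled at an adjusted P below 0.05 in the limma fit and a red bar at the median of each list. The medians of 8 lists lie between -0.06 and 0.11, that of the lipoprotein receptors at 1.47, and the filled circles are Apoe, Nceh1, Fabp5 and Ch25h.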

How the data were processed

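RNA of 7 libraries was sequenced after amplification with SMART-Seq v4 from picogram amounts. Per the labels and the study's methods, the authors aligned single reads with STAR 2.7.2a and counted them per gene name with featureCounts 1.6.2 on GENCODE M21 (GRCm38.p6). The authors deposited raw counts, without use of strand and without reads that aligned to several places, so antisense reads and near-identical copies can alter a count.

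From these counts, CPM with TMM factors, RPKM (exon lengths from the table), fold changes and tests were obtained in R 4.3.3 from limma 3.58.1 (voomWithQualityWeights), edgeR 4.0.16 and DESeq2 1.42.0. The filter was filterByExpr by group (15257 genes), and Benjamini-Hochberg adjustment ran over all of them. No 2 libraries of the same group agreed within counting noise. Amplified reads are not independent molecules, and a floor of 3 counts covers counting error only. Scripts were tested on simulated data.

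The 10 genes and the lists were chosen with earlier results of these data known. Named beside the 10 were, per related list, called genes and the 2 largest changes, per marker list the most abundant and the most changed gene, and the 5 genes most like Apoe and Lpl, except for 2 genes that are not reported here. Alternatives were other normalizations, filters, tests and thresholds, a replicate block, and each library left out.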

Additional observations from a re-analysis of the deposited data

Results flagged for a closer look

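In groups of 4 libraries, a value is marked when its gap to the nearest other library exceeds Dixon's critical share of the group's range. Among 47 genes tested in the outside libraries 6 were marked, where chance would mark about 1 in 20 (2.35 genes), and none of the 10 genes was among them. Of the lipid transporters, Abca2 was at 26.8 CPM in outside graft 2, against 48.9 to 51.6 CPM in the other outside libraries, and Abca5 was at 6.78 CPM in outside graft 1, against 0.578 to 0.769 CPM. Of the genes of dividing cells, Mki67 was at 3.6 CPM in outside graft 2, against 0 to 0.282 CPM, and Top2a was at 9.52 CPM in the same library, against 0.0402 to 0.203 CPM. Chil3 of the monocyte list was at 15.0 CPM in outside graft 3, against 0 to 1.38 CPM, and Pecam1 of the endothelial list was at 27.3 CPM there, against 39.0 to 41.5 CPM.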

How the results depend on the processing

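The directions of Apoe, Lpl, Nceh1, Soat1, Nr1h3, Nr1h2, Plin2 and Fabp5 held under all alternatives run, and Abca1 (-0.067 without inside graft 1, and -0.067 to 0.22 over left-out libraries) and Abcg1 (0.0096 without inside graft 3, and -0.27 to 0.0096) reversed. Of the 10 genes, the limma fit called 3; it called 6 with at least 10 counts in every library (Lpl, Soat1 and Plin2 in addition) and 0 at an adjusted P below 0.01, DESeq2 called 5 (Soat1 and Plin2 in addition), and leaving out 1 library gave 0 to 3, with 0 without outside graft 3 or 4. The edgeR test called 3 and gave 0 to 3 with 1 library left out (0 without inside graft 3, outside graft 2 or outside graft 4, and 1 without outside graft 3). The median log2 fold change of 0.89 ran from 0.58 to 1.20 over left-out libraries. Over all genes the limma fit called 75, and 225 with no filter, 211 with the strict filter, 15 by edgeR, 420 by DESeq2, 10 without quality weights, 3 at 0.01 and 1 to 207 with 1 library left out (1 without outside graft 3 or 4). The edgeR test called 15, and 366 with no filter, 92 with the strict filter and 0 to 73 with 1 library left out. Of the related genes, the limma fit called 1, and 4 with no filter, 3 with the strict filter, 0 by edgeR or without weights, 7 by DESeq2 and 0 to 2 with 1 library left out. The edgeR test called 0, and 4, 1 and 7 under the same 3 changes and 0 to 1 with 1 library left out. The cause of these shifts was not tested.

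The deviations of same-numbered libraries from their group means had correlations of -0.04, 0.09 and 0.07. The labels do not say whether these libraries share a mouse, so the main tests were unpaired. Inside graft 2 and 3 correlated best with their own number, inside graft 1 did not. With the replicate block, which drops outside graft 4, the limma fit called 265 genes in all, 6 related genes and 4 of the 10 genes (Lpl in addition, adjusted P 0.000654) with a median of 0.58, and edgeR called 43 genes in all.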
